A study of Homo sapiens with 12 samples.

Results

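The WNT pathway was described through 54 genes, of 48114 listed genes, chosen by symbol: all WNT, FZD, DKK and SFRP genes, together with LRP5, LRP6, AXIN1, AXIN2, LEF1, TCF7, TCF7L1, TCF7L2, WLS, APC, GSK3B, LGR4, LGR5, NKD1, NKD2, ZNRF3 and NOTUM. The symbols set the choice and no threshold on a measured value was used, although earlier results of these data were known. They comprised 19 ligands, 14 receptors and co-receptors, 9 secreted antagonists, 4 genes of the destruction complex, 3 feedback regulators, 4 transcription factors and the secretion factor WLS. PolyA RNA was sequenced from 2 established cell lines of pancreatic ductal adenocarcinoma (PDAC), PANC-1, a model of the basal-like subtype, and HPAF-II, a model of the classical subtype. PANC-1 was transfected with a control siRNA (siCtrl), with siRNA against the splicing regulator QKI (siQKI) or with siRNA against the splicing regulator RBFOX2 (siRBFOX2), the last pair at 40 nM, and each group held 3 libraries taken after 48 h. HPAF-II received siCtrl alone, in 3 libraries, so all 12 libraries came from transfected cells. Each knockdown was made in 1 line, both knockdowns were compared with the same siCtrl libraries, and the libraries were not stated to be separate cultures, so p-values measure the spread between libraries.

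WNT ligands are secreted lipid-modified proteins that need WLS to leave the cell and that bind Frizzled (FZD) receptors together with the co-receptors LRP5 or LRP6. In the canonical branch this stops a destruction complex, built on AXIN, APC and GSK3B, from degrading beta-catenin, which then acts with TCF/LEF factors on target genes, while other ligands such as WNT5A act mainly through branches that control cell polarity and movement. SFRP proteins bind ligands, DKK1 blocks LRP5 and LRP6, LGR4 and LGR5 receive R-spondins that keep Frizzled receptors at the surface, and AXIN2, NKD1, NKD2, ZNRF3 and NOTUM are induced in many tissues as brakes on the signal.

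The sequences before 2 start sites are shown for members on which the results below turn. WNT6 was the ligand that changed most clearly after siQKI, and DKK1 was the member with the highest level per length in both lines. Both stretches are the 250 bases before the RefSeq start (GRCh38.p14, plus strand), WNT6 at chr2:218859555-218859804 and DKK1 at chr10:52314031-52314280. The DKK1 stretch reaches 29 bases past the start of DKK1 in the deposited annotation, and the WNT6 start is identical in both. Capitals mark the letters searched on both strands: the TCF/LEF letters CTTTGAA, or CTTTGAT in its place, and the forms CTTTGTA together with CTTTGTT, the TATA box TATAAA, the CCAAT box CCAAT and the GC box GGGCGG.
WNT6: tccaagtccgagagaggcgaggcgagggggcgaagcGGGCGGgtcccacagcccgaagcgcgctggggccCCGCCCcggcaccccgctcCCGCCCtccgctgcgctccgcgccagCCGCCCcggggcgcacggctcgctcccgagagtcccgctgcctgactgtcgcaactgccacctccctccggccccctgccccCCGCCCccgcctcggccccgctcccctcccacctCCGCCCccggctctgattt
DKK1: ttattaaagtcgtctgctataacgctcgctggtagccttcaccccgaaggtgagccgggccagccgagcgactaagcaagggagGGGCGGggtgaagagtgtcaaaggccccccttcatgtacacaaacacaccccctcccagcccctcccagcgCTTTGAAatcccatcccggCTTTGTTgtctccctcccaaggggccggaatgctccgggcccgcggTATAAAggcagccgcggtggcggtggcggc
The WNT6 stretch held 6 GC boxes and none of the other letters. The DKK1 stretch held 2 TCF/LEF matches, which began 95 and 76 bases before the start, a TATA box that began 30 bases before it and 1 GC box. Of all 35116 windows of the same length in the table, 12.0% held a TCF/LEF match, 10.7% a TATA box, 32.0% a CCAAT box and 42.6% a GC box. A window was found for 36 of the 54 members, in 44 windows, and 3 members held a TCF/LEF match in at least 1 of them: DKK1, TCF7 and TCF7L2.

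The values were gene counts divided by a size factor for each library, called normalized counts here. The siRNAs lowered their targets, QKI from 25533 ± 869 to 5034 ± 412 normalized counts (SD, n = 3) after siQKI, and RBFOX2 from 15429 ± 76.8 to 2095 ± 352 (SD, n = 3) after siRBFOX2. RBFOX2 was also lower after siQKI, by a log2 fold change of -0.29 ± 0.09 (SE, adjusted p = 0.0207). For the lines, the values of a library were scaled to sum to 1000000 (rescaled counts). Per library, 5 epithelial markers summed to 2546 to 2639 rescaled counts in PANC-1 siCtrl and to 10285 to 10696 in HPAF-II, and 5 mesenchymal markers summed to 5376 to 5567 and to 1.21 to 16.4, with TWIST1 at 0 in both. The upper value of HPAF-II came from replicate 1, in which VIM stood at 15.2 rescaled counts against 0.283 and 0.3 in the other two. LYZ stood at 1094 rescaled counts in HPAF-II while PTPRC, which marks leukocytes, was at 0. The fibroblast sum was 11.7 to 13.4 in PANC-1 siCtrl and 25.2 to 28.7 after siQKI, mostly COL1A1 (11.9 and 24.6), and 15.1 to 22.6 after siRBFOX2 (COL1A1 16.8). In HPAF-II the fibroblast sum was 19.1 to 23.2, with COL1A1 at 18.5, COL1A2 at 1.16, LUM at 1.05 and DCN at 0.393. In PANC-1, DCN was at 0 in siCtrl and siQKI, and CDH1 stood at 2.87 in siCtrl, 7.91 after siQKI and 4.33 after siRBFOX2. The part of these markers in the results was not tested. In bulk RNA, fewer cells of a type and less RNA per cell cannot be told apart.

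In PANC-1 siCtrl few members stood at a high RNA level. Per kilobase of exon, DKK1 stood at 377 rescaled counts, ahead of WNT7B at 43.3 and LRP5 at 35.0, and then of DKK3 at 15.9 and SFRP1 at 10.1. Among Frizzled receptors the level per kilobase was 9.52 for FZD7, 7.36 for FZD2, 4.67 for FZD6 and 2.24 for FZD5. The exon length used for FZD2, 2112 bases, ends at 44559570, while its deposited coordinates reach 44561262. Its level per kilobase may therefore be too high, and its rank against FZD6 is uncertain. Of the 19 ligands, WNT7B was followed by WNT5B at 4.27, and WNT6 followed at 1.60, WNT9A at 0.976 and WNT10A at 0.555 rescaled counts per kilobase. Of the 54 members, 46 reached a mean of 10 normalized counts over the 9 PANC-1 libraries and were tested. The 8 others were WNT2, WNT3A, WNT8B, WNT9B, FZD10, DKK2, DKK4 and SFRP2, of which WNT9B and FZD10 were listed at 0 in all 12 libraries.

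The first comparison asked which members changed when QKI was depleted. After siQKI, 20 of the 46 tested members passed the threshold (adjusted p under 0.05, limma), 16 higher and 4 lower, or 43.5% beside 33.0% of all 22544 genes tested. Of the genes tested, 14.9% were higher and 18.1% lower. Changes of at least 1.5-fold past the threshold were found for 10 members, 8 higher and 2 lower, beside 9.03% of all genes, of which 5.87% were higher and 3.16% lower. The median log2 fold change was 0.13 over the members and 0.03 over all genes. After siRBFOX2, 18 of 46 members passed, 12 higher and 6 lower, or 39.1% beside 26.5% of all genes, 12.0% higher and 14.5% lower. At least 1.5-fold were 5 members, 3 higher and 2 lower, beside 5.71% of all genes (4.09% higher and 1.62% lower), and the medians were 0.23 and 0.01. In both knockdowns 13 of the 46 members were called, each in the same direction, beside 17.9% of all genes called in both. The 2 comparisons share the siCtrl libraries, which favours calls in the same direction, and the share of such calls over all genes was not counted. The values are therefore given side by side below. The knockdowns were also set against each other directly, and 13 of 46 members differed, 9 higher and 4 lower after siQKI, beside 21.5% of all genes, of which 9.93% were higher and 11.6% lower. Without a mean-variance trend in the fit, FZD3, FZD7, FZD9 and LGR5 lost the call after siQKI (adjusted p = 0.0601 to 0.0813), WNT7B, WNT9A, WNT10A, FZD2, FZD5, LGR5 and AXIN2 after siRBFOX2 (0.0576 to 0.123), and FZD2, LEF1 and NKD2 between the knockdowns (0.0645 to 0.131).

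**Figure D1:**
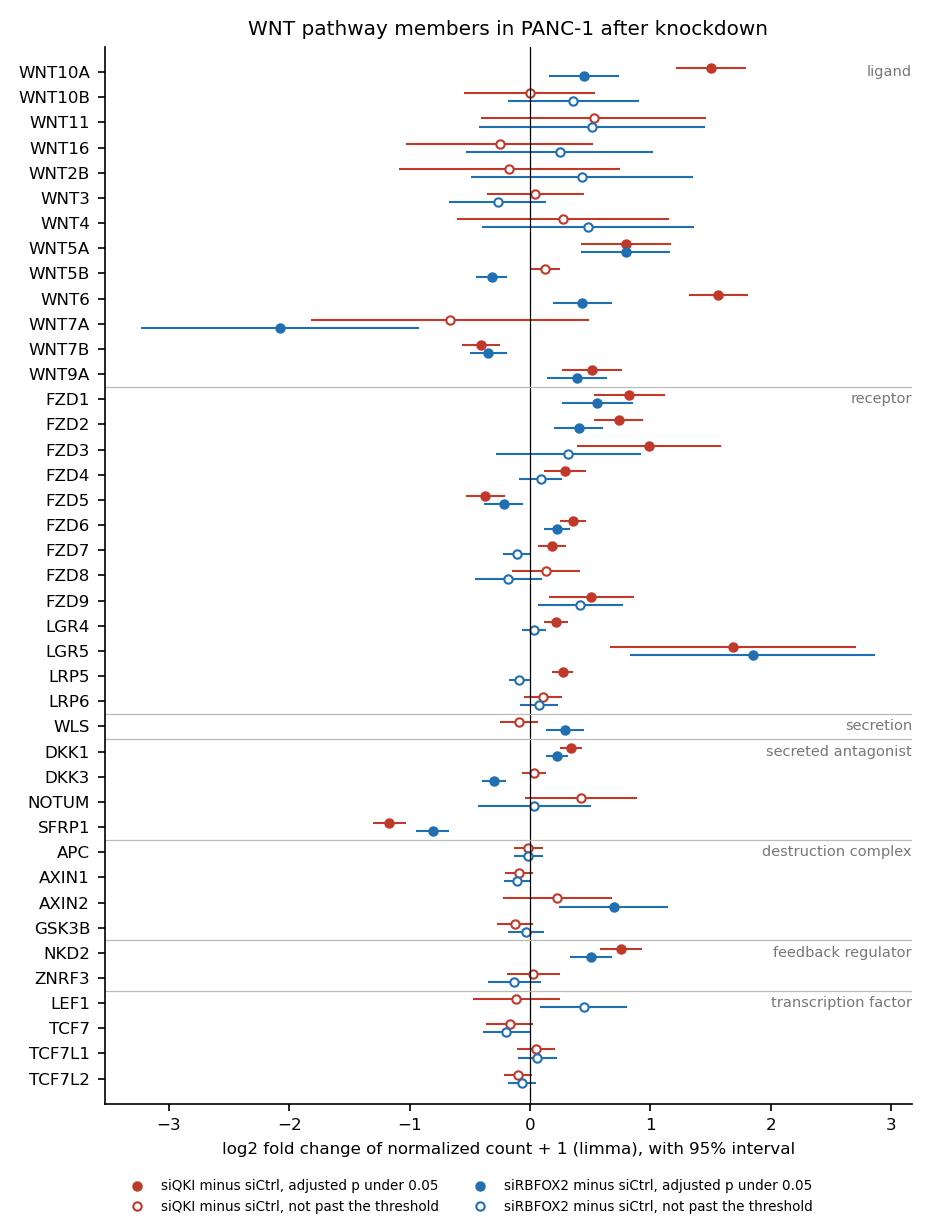
Log2 fold change of normalized count + 1 with its 95% interval (horizontal axis) for the 41 members whose PANC-1 mean reached 50 normalized counts, grouped by role, after siQKI (red) and siRBFOX2 (blue) against siCtrl, n = 3 libraries a group. Filled points passed the threshold and open points did not: WNT6 and WNT10A sit farther right for siQKI than for siRBFOX2, most receptors lie to the right of 0 after siQKI, and SFRP1 lies to the left of 0 in both.

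Among the ligands that passed, WNT6 and WNT10A had the largest rises after siQKI, and they are neighbours on chromosome 2 (hg38), WNT6 at 218859805 to 218874233 and WNT10A at 218880522 to 218893929, 6.3 kb apart. WNT6 stood at 1025, 942 and 839 normalized counts in siCtrl replicates 1 to 3, at 2953, 2715 and 2624 after siQKI and at 1445, 1269.7 and 1092 after siRBFOX2. The groups did not overlap, and the siQKI libraries stood far above both others. The log2 fold change was 1.56 ± 0.11 after siQKI (SE, adjusted p = 8.86e-08), 0.43 ± 0.11 after siRBFOX2 (adjusted p = 0.0107) and 1.13 between the knockdowns (adjusted p = 5.33e-06). WNT10A stood at 629.9, 678 and 646 in siCtrl, at 2085, 2009 and 1505 after siQKI and at 908, 988 and 785 after siRBFOX2. Again no group overlapped another, with siQKI replicate 3 the lowest of its group. Its log2 fold change was 1.5 ± 0.14 after siQKI (adjusted p = 7.23e-07), 0.45 ± 0.14 after siRBFOX2 (adjusted p = 0.0229) and 1.05 between the knockdowns (adjusted p = 4.9e-05). The smaller rises after siRBFOX2 rested on single libraries: the adjusted p of WNT6 was 0.052 without siCtrl replicate 3 and 0.059 without siRBFOX2 replicate 1, and that of WNT10A 0.0569 to 0.0896 without siCtrl replicate 1 or 3 or siRBFOX2 replicate 1 or 2.

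Within 60 kb on either side of the pair, the only other gene listed that reached the filter was CYP27A1, a sterol hydroxylase, looked up after the values of the pair were seen. It rose by 0.84 after siQKI (adjusted p = 0.00704) and by 0.86 after siRBFOX2 (adjusted p = 0.00817) on the log2 scale. The 3 other ligand pairs within 60 kb of each other offer no comparison, because 1 gene of each was untested or near the floor. WNT9A rose while WNT3A, 59.0 kb away and not tested, stood at 0 to 3.83 normalized counts. WNT10B did not pass, and WNT1, 6.5 kb away, was at 0 in 6 of 9 libraries. WNT3 did not pass, and WNT9B, 14.5 kb away, was listed at 0 and not tested.

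WNT5A, the prototype of the polarity branch (chr3:55465715-55487642), rose in both knockdowns. It stood at 262, 365 and 282 normalized counts in siCtrl, at 572, 535 and 464 after siQKI and at 528, 511 and 524 after siRBFOX2. All 6 knockdown libraries lay above all siCtrl libraries and the knockdowns overlapped each other. The log2 fold change was 0.80 ± 0.17 after siQKI (adjusted p = 0.00224) and 0.80 ± 0.17 after siRBFOX2 (adjusted p = 0.00321), and the difference between the knockdowns was 0.0029 (95% interval -0.37 to 0.38). WNT9A (chr1:227918656-227947975) stood at 1158, 1579 and 1267 in siCtrl, at 2025, 1797 and 1866 after siQKI and at 1721, 1919.6 and 1587 after siRBFOX2, so that the highest siCtrl library came close to the lowest siRBFOX2 library without reaching it. It rose by 0.52 ± 0.12 (adjusted p = 0.0028) and by 0.39 ± 0.12 (adjusted p = 0.0208), the second lost without siCtrl replicate 1 or 3 or siRBFOX2 replicate 2 (adjusted p = 0.0699 to 0.0959).

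WNT7B, the most abundant ligand (chr22:45920366-45977162), fell in both knockdowns. It stood at 64851, 80664 and 80659 normalized counts in siCtrl, at 55423, 60153 and 54222 after siQKI and at 61771, 60762 and 54878 after siRBFOX2. Replicate 1 of siCtrl lay nearer to the knockdown libraries than to the other siCtrl libraries, yet above them all. The log2 fold change was -0.41 ± 0.07 (adjusted p = 0.000477) and -0.34 ± 0.07 (adjusted p = 0.00256), the second lost without a mean-variance trend (0.0576). WNT5B, the second ligand by level, went apart between the knockdowns, at 6239.7, 6449 and 6292 in siCtrl, 7471, 6585 and 6711 after siQKI and 4905, 5095 and 5227 after siRBFOX2. Its values fell by 0.32 after siRBFOX2 on the log2 scale (adjusted p = 0.000898), its change after siQKI was 0.13 (adjusted p = 0.116, or 0.0214 with upper-quartile rescaling), and the knockdowns differed by 0.45 (adjusted p = 5.99e-05). WNT7A, a paralogue of WNT7B at low level, stood at 123, 147 and 59.4 in siCtrl, 108, 36.6 and 67.1 after siQKI and 28.4, 26.1 and 17.6 after siRBFOX2. Its change of -2.08 ± 0.54 after siRBFOX2 passed (adjusted p = 0.00973, or 0.0537 without siCtrl replicate 2), and the siQKI libraries overlapped siCtrl. In all, 5 of 15 tested ligands were called after siQKI, 4 of them higher, and 7 of 15 after siRBFOX2, 4 of them higher, a count that was 4 without siCtrl replicate 3 or without a mean-variance trend. The shares over all genes tested were 33.0% and 26.5%, so the ligand count after siQKI was at the background.

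**Figure D2:**
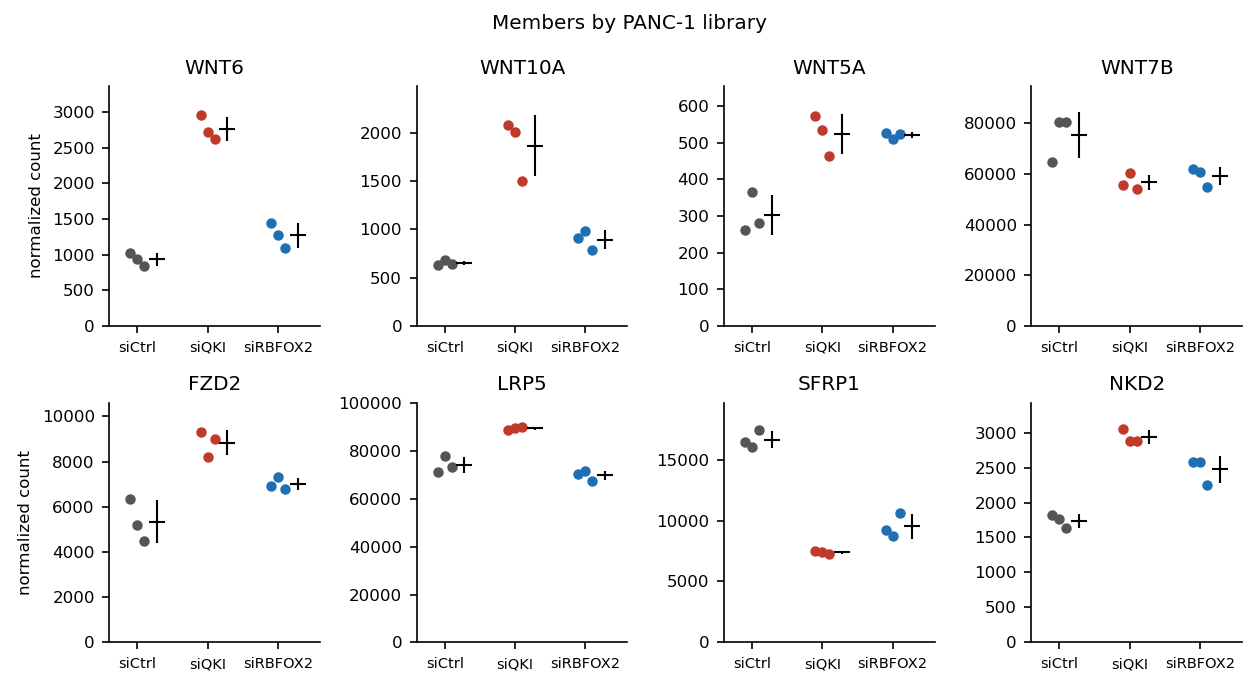
Normalized counts (vertical axes, from 0) of 8 members in each PANC-1 library, with points for replicates 1 to 3 from left to right and the mean ± SD of 3 libraries in black beside them. The siQKI libraries of WNT6 and WNT10A lie above every other library, those of LRP5 lie between 88819 and 89960.2, and all 6 knockdown libraries of SFRP1 lie below the siCtrl libraries.

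Most receptors were higher after siQKI: 11 of 13 tested receptors were called, 10 higher and FZD5 lower, and 4 rose by at least 1.5-fold. Over all genes tested 33.0% were called, 14.9% higher, and 5.87% higher by at least 1.5-fold. After siRBFOX2, 5 of 13 were called, 4 higher and FZD5 lower, or 3 without siRBFOX2 replicate 2 and 2 without a mean-variance trend, beside 26.5% of all genes. The siQKI count was 8 without siCtrl replicate 3 or without siQKI replicate 1, and 7 without a mean-variance trend. FZD2 (chr17:44557459-44561262) stood at 6349.8, 5182 and 4494 normalized counts in siCtrl, 9299, 8211 and 8997 after siQKI and 6936, 7309 and 6789 after siRBFOX2. The groups did not overlap, in the order siCtrl, siRBFOX2 and siQKI. It rose by 0.74 ± 0.09 after siQKI (adjusted p = 2.27e-05) and by 0.41 ± 0.09 after siRBFOX2 (adjusted p = 0.00483, 0.0646 without a mean-variance trend), and the difference of 0.33 between the knockdowns (adjusted p = 0.0196) did not hold without siQKI replicate 1 or 3 or siRBFOX2 replicate 1 or 3 (adjusted p = 0.0548 to 0.0764). FZD1, at 953, 649.6 and 777 in siCtrl, 1425, 1301 and 1446 after siQKI and 1017, 1234 and 1231 after siRBFOX2, rose by 0.83 ± 0.14 (adjusted p = 0.000261) and by 0.56 ± 0.14 (adjusted p = 0.007). Its knockdown libraries all lay above siCtrl, replicate 1 of siRBFOX2 by little.

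LRP5, the co-receptor with the highest level of all receptors (chr11:68312591-68449275), rose after siQKI alone. It stood at 71287, 77798 and 73468 normalized counts in siCtrl, 88819, 89586 and 89960.2 after siQKI and 70359, 71500.0 and 67566 after siRBFOX2. The siQKI libraries were close to each other and above all others, while siRBFOX2 overlapped siCtrl. The log2 fold change was 0.27 ± 0.04 after siQKI (adjusted p = 7.25e-05) and -0.09 ± 0.04 after siRBFOX2 (adjusted p = 0.124), and the knockdowns differed by 0.36 (adjusted p = 1.12e-05). LRP6, at 4757 to 5026 in siCtrl, changed by 0.11 (95% interval -0.05 to 0.27) and by 0.07 (-0.08 to 0.23), and passed in neither. FZD7, the Frizzled receptor with the highest level per length, followed the pattern of LRP5: 12622, 12776 and 12504 in siCtrl, 14779.8, 14096 and 14170.3 after siQKI and 12469.9, 10701 and 12023 after siRBFOX2. It rose by 0.18 ± 0.05 after siQKI (adjusted p = 0.0165, 0.0518 without siCtrl replicate 3 and 0.0642 without siQKI replicate 1), its change after siRBFOX2 was -0.11 (adjusted p = 0.163), and the knockdowns differed by 0.29 (adjusted p = 0.00105). LGR4, at 12524, 12807 and 11904 in siCtrl, 14572, 14317 and 14404 after siQKI and 12682, 13262 and 12212 after siRBFOX2, did likewise, with a rise of 0.22 ± 0.05 after siQKI (adjusted p = 0.00191) and a difference of 0.18 between the knockdowns (adjusted p = 0.0102).

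LGR5, a stem cell marker and R-spondin receptor (chr12:71439769-71586310), was low and had the largest fitted rises among the receptors. It stood at 101, 109 and 35.2 normalized counts in siCtrl, 279, 164 and 294 after siQKI and 284, 484 and 137 after siRBFOX2. No knockdown library reached down to siCtrl, but the libraries of each group lay far apart. On the log2 scale the change was 1.69 ± 0.48 (adjusted p = 0.0128) and 1.85 ± 0.48 (adjusted p = 0.0093). The first was lost without siCtrl replicate 3 (adjusted p = 0.0646) or siQKI replicate 3 (0.0523), the second without siRBFOX2 replicate 2 (0.0557), and 208 bases of its exons overlap a gene on the opposite strand. FZD6 stood at 6787, 6255 and 6551 in siCtrl, 8567, 8272 and 8282 after siQKI and 7622, 7541 and 7729 after siRBFOX2, in groups that did not overlap, and rose by 0.36 ± 0.05 (adjusted p = 4.93e-05) and 0.23 ± 0.05 (adjusted p = 0.00347). FZD3, at 447, 278 and 186 in siCtrl, 729, 495 and 504 after siQKI and 297, 337 and 451 after siRBFOX2, rose after siQKI by 0.99 ± 0.28 (adjusted p = 0.0132), which was lost without siCtrl replicate 3 (0.0698) or siQKI replicate 1 (0.0678).

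FZD5 was the receptor that went the other way. It stood at 5285, 5405 and 4822 normalized counts in siCtrl, 3746, 4081 and 4177 after siQKI and 4796, 4031 and 4533 after siRBFOX2. Every knockdown library lay below every siCtrl library, siRBFOX2 replicate 1 by a narrow margin. It fell by 0.37 ± 0.08 after siQKI on the log2 scale (adjusted p = 0.00127). The fall of 0.22 after siRBFOX2 was at the threshold (adjusted p = 0.044), and 6 of 17 alternatives kept the call. It was lost without siCtrl replicate 1 (0.118) or 2 (0.149), siRBFOX2 replicate 2 (0.184) or 3 (0.0661), and siQKI replicate 2 (0.0575) or 3 (0.0509). FZD4 rose after siQKI by 0.29 ± 0.08 (adjusted p = 0.0132), from 2320.5, 2239 and 2424 to 2861, 3104 and 2593, with 2601, 2319 and 2510.1 after siRBFOX2. That call was lost without siCtrl replicate 2 (0.051) or siQKI replicate 2 (0.077), and 1399 bases of its exons overlap PRSS23 on the opposite strand. FZD9 rose by 0.51 ± 0.17 after siQKI (adjusted p = 0.0278), from 511, 453 and 548 to 903, 586 and 695, with 741, 642 and 639 after siRBFOX2, and lost the call without siCtrl replicate 1 (0.0535) or 2 (0.0983) or siQKI replicate 1 (0.147) or 3 (0.0558). FZD8, at 1002 to 1359 in siCtrl, passed in neither knockdown.

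WLS, which carries ligands to the cell surface, rose after siRBFOX2 and not after siQKI. It stood at 2477, 2655 and 2579 normalized counts in siCtrl, 2334, 2476 and 2438 after siQKI and 3426, 2977 and 3050.1 after siRBFOX2. The siRBFOX2 libraries lay above all others. On the log2 scale the change was 0.29 ± 0.07 after siRBFOX2 (adjusted p = 0.00891, 0.0536 without siRBFOX2 replicate 1) and -0.09 ± 0.07 after siQKI (adjusted p = 0.415), and the knockdowns differed by 0.38 (adjusted p = 0.00172), higher after siRBFOX2.

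Among the secreted antagonists SFRP1 and DKK1 moved in opposite directions, in both knockdowns. SFRP1, a ligand-binding inhibitor, stood at 16411, 16054 and 17385 normalized counts in siCtrl, 7501, 7392 and 7249 after siQKI and 9209.9, 8706 and 10620.3 after siRBFOX2. The 3 groups did not overlap and siQKI was the lowest. On the log2 scale the change was -1.17 ± 0.06 after siQKI (adjusted p = 4.37e-09), -0.81 ± 0.06 after siRBFOX2 (adjusted p = 4.14e-07) and -0.36 between the knockdowns (adjusted p = 0.000754). DKK1 (chr10:52314252-52317657), whose start region is printed above, stood at 279518, 297381 and 281160.0 in siCtrl, 373156, 361230.0 and 351028 after siQKI and 351170.0, 318356 and 334561 after siRBFOX2. The knockdown libraries lay above all siCtrl libraries and overlapped each other. It rose by 0.34 ± 0.04 (adjusted p = 2.14e-05) and 0.23 ± 0.04 (adjusted p = 0.00114), and the knockdowns were 0.11 apart on the log2 scale (adjusted p = 0.0789, or 0.0365 without siRBFOX2 replicate 1 and 0.0209 with upper-quartile rescaling).

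DKK3, a secreted relative of DKK1 (chr11:11963036-12009773), fell after siRBFOX2 alone. It stood at 28628, 27035 and 27117 normalized counts in siCtrl, 29840.1, 27329.6 and 27501 after siQKI and 23018, 21449 and 22767 after siRBFOX2. The siRBFOX2 libraries lay below all others, and siQKI overlapped siCtrl. On the log2 scale the change was -0.30 ± 0.05 after siRBFOX2 (adjusted p = 0.000211) and 0.03 ± 0.05 after siQKI (adjusted p = 0.66), and the knockdowns differed by 0.33 (adjusted p = 0.000101). SFRP4 was near the floor, at 6.70, 8.99 and 24.1 in siCtrl and 18.9, 49.4 and 50.02 after siRBFOX2, and was listed at 0 in all 3 siQKI libraries. Its fall after siQKI passed (adjusted p = 0.0231) but not without siCtrl replicate 3 (0.111), with a pseudocount of 10 (0.12) or with only the groups compared (0.0966), and the fitted size moved with the pseudocount, so none is given. NOTUM, which removes the lipid from ligands, and SFRP5 passed in neither.

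Of 4 destruction complex genes tested, 0 were called after siQKI and 1 after siRBFOX2. Feedback regulators gave 1 of 3 in each knockdown, and transcription factors 0 of 4 in each. Over all genes tested 33.0% and 26.5% were called, and roles of 3 or 4 genes are too small to set against those shares. Of the destruction complex, APC, AXIN1 and GSK3B passed in neither knockdown, with log2 fold changes between -0.12 and -0.01. AXIN2, both a component and a widely used readout of canonical signalling (chr17:65528563-65561648), stood at 588, 578 and 394 normalized counts in siCtrl, 542, 559 and 709.8 after siQKI and 961, 998 and 594 after siRBFOX2. The third replicates of siCtrl and siRBFOX2 were the lowest of their groups, and the lowest siRBFOX2 library stood barely above the highest siCtrl library. Its change after siRBFOX2 was 0.69 ± 0.21 (adjusted p = 0.0241), lost without siCtrl replicate 3 (0.117) or siRBFOX2 replicate 1 (0.0984) or 2 (0.105), and after siQKI 0.23 (95% interval -0.23 to 0.68). On the annotation 1316 bases of its exons are shared with another gene on the same strand, so reads of the pair could be split between them. Between the knockdowns AXIN2 was 0.47 lower after siQKI on the log2 scale, short of the threshold (adjusted p = 0.142, 0.0226 without siRBFOX2 replicate 3).

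NKD2, an antagonist that acts on Dishevelled (chr5:1008802-1038943), was the feedback regulator that rose in both. It stood at 1822, 1771 and 1629.9 normalized counts in siCtrl, 3047, 2881 and 2880.2 after siQKI and 2579.6, 2581 and 2256 after siRBFOX2. The groups did not overlap. It rose by 0.75 ± 0.08 (adjusted p = 4.16e-06) and 0.50 ± 0.08 (adjusted p = 0.000299), and the difference of 0.25 between the knockdowns (adjusted p = 0.0393) was lost without any siQKI library (0.077 to 0.125) or siRBFOX2 replicate 3 (0.163). ZNRF3 and NKD1, the latter at 10.3 to 97.8 in PANC-1, did not pass against siCtrl. Of the transcription factors, TCF7, TCF7L1 and TCF7L2 passed in no comparison. LEF1 stood at 712, 484 and 609.7 in siCtrl, 529, 636 and 493 after siQKI and 844, 893 and 705 after siRBFOX2. It passed only between the knockdowns, lower after siQKI by 0.56 (adjusted p = 0.027, 0.0749 to 0.104 without siQKI replicate 1 or 3 or siRBFOX2 replicate 1 or 2). Against siCtrl its change was -0.11 after siQKI (adjusted p = 0.667) and 0.45 ± 0.17 after siRBFOX2 (adjusted p = 0.0658). The latter passed without siCtrl replicate 1 (0.0321) or siRBFOX2 replicate 3 (0.0465), and 279 bases of the LEF1 exons overlap LEF1-AS1.

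Beyond the members, 63 other pathway genes were listed from textbook knowledge, of which 57 were tested. After siQKI 28 were called, 19 higher and 9 lower (49.1%), and after siRBFOX2 23, 13 higher and 10 lower (40.4%), with median log2 fold changes of 0.08 and 0.05. Over all genes tested the shares were 33.0% and 26.5%, and the medians 0.03 and 0.01. Outside the rule for named genes and chosen after its values were seen, CTNNB1, which encodes beta-catenin, rose from 61251 to 71316 normalized counts after siQKI, by 0.22 on the log2 scale (adjusted p = 0.000942). The kinases GSK3A and CSNK1A1, which act in the destruction complex and were chosen in the same way, fell by 0.41 (adjusted p = 9.38e-06) and 0.24 (adjusted p = 0.000179) on that scale after siQKI. Genes picked in this way do not stand for the list, and the members APC, AXIN1 and GSK3B of the same complex passed in neither knockdown. CELSR1, a polarity cadherin, rose from 8164 ± 235 to 17258 ± 789.98 normalized counts after siQKI and to 17043 ± 1126 after siRBFOX2 (SD, n = 3), log2 fold changes of 1.08 and 1.06 (adjusted p = 1.92e-09 and 5.45e-09). Its relative CELSR2 rose by 0.91 after siQKI (adjusted p = 9.93e-05), and TLE4, a Groucho co-repressor, by 0.76 after siRBFOX2 (adjusted p = 0.00053). ROR1, a receptor of WNT5A, fell from 5418 ± 323 to 2139 ± 134 after siQKI and to 4505 ± 144 after siRBFOX2, by 1.34 and 0.26 on the log2 scale, and the knockdowns differed by 1.08 (adjusted p = 6.75e-08). BCL9, a beta-catenin coactivator, fell by 0.59 after siQKI (adjusted p = 1.88e-06), and TNKS2, which marks AXIN for degradation, fell by 0.30 after siRBFOX2 (adjusted p = 0.000138).

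Of 29 genes described as WNT targets in other systems, 24 were tested, and more of the calls were lower than higher. RNF43 and APCDD1 stood on this list and on that of the other pathway genes. Over all genes tested the imbalance was smaller, with 18.1% lower and 14.9% higher after siQKI and 14.5% and 12.0% after siRBFOX2. In all, 33.0% and 26.5% of those genes were called, with median log2 fold changes of 0.025 and 0.011. After siQKI 16 were called, 5 higher and 11 lower (66.7%, median log2 fold change -0.29), and after siRBFOX2 11, 2 higher and 9 lower (45.8%, median -0.07). FOSL1, a subunit of the AP-1 transcription factor, fell from 532058 ± 17822 to 280894 ± 5990.4 normalized counts after siQKI (log2 fold change -0.92, adjusted p = 3.18e-10). JUN, another AP-1 subunit, fell from 45642 ± 1998 to 26775 ± 2395 and 21927 ± 1858, by 0.77 and 1.06 on the log2 scale (adjusted p = 4.34e-07 and 4.09e-08). CCND1, which encodes cyclin D1, fell by 1.04 after siRBFOX2 (adjusted p = 1.89e-10). ID2, an inhibitor of basic helix-loop-helix factors, and EPHB3, an ephrin receptor, rose after siQKI by 0.70 (adjusted p = 4.44e-06) and 0.69 (adjusted p = 0.0162). SOX4 and VEGFA rose after siRBFOX2 by 0.31 (adjusted p = 0.00139) and 0.19 (adjusted p = 0.011). These genes answer to many pathways. Of the members described above, AXIN2, LGR5, NKD2 and DKK1 are targets themselves. So are NKD1, ZNRF3 and NOTUM, which passed against siCtrl in neither knockdown.

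**Figure D3:**
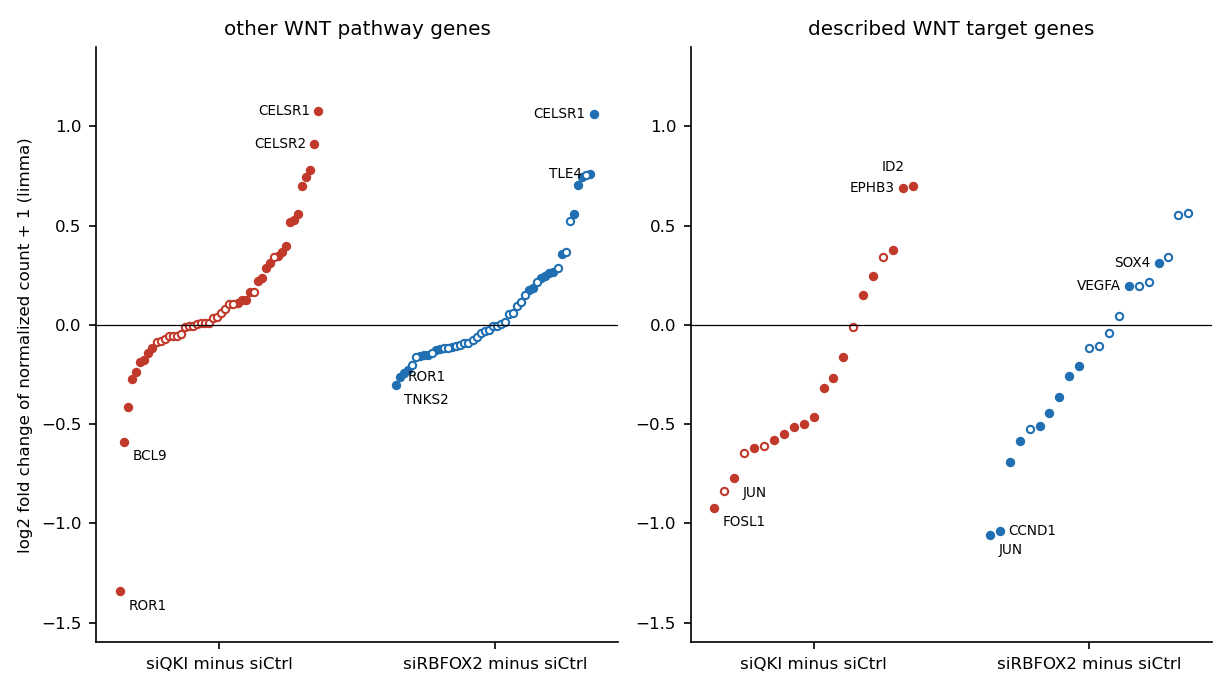
Log2 fold change of normalized count + 1 (vertical axis) for 50 other pathway genes (left) and 21 described target genes (right) whose siCtrl mean reached 50 normalized counts, sorted within each contrast. Filled points passed the threshold and open points did not; CELSR1 lies at the top of the left panel in both contrasts, and JUN lies at or near the bottom of the right panel in both.

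The second question was how the pathway differed between the lines. The line tables were normalized separately, so rescaled counts of the siCtrl libraries were compared without a test, and a member was called when the lines stood at least 2-fold apart with no overlap of libraries. Of 46 members that reached a mean of 10 normalized counts in either line, 28 were called, 9 higher and 19 lower in HPAF-II, beside 42.7% of 24673 genes, of which 21.1% were higher and 21.6% lower. At 0 in all 3 HPAF-II libraries were 9 of the 46, beside 6.86% of the genes. Of 34 members with a mean of at least 0.1 rescaled counts and no 0 in HPAF-II, replicate 3 was the library farthest from the median for 22, and leaving it out gave 29 calls. Folds use a pseudocount of 0.01 and are given only where neither group holds a library at 0.

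**Figure D4:**
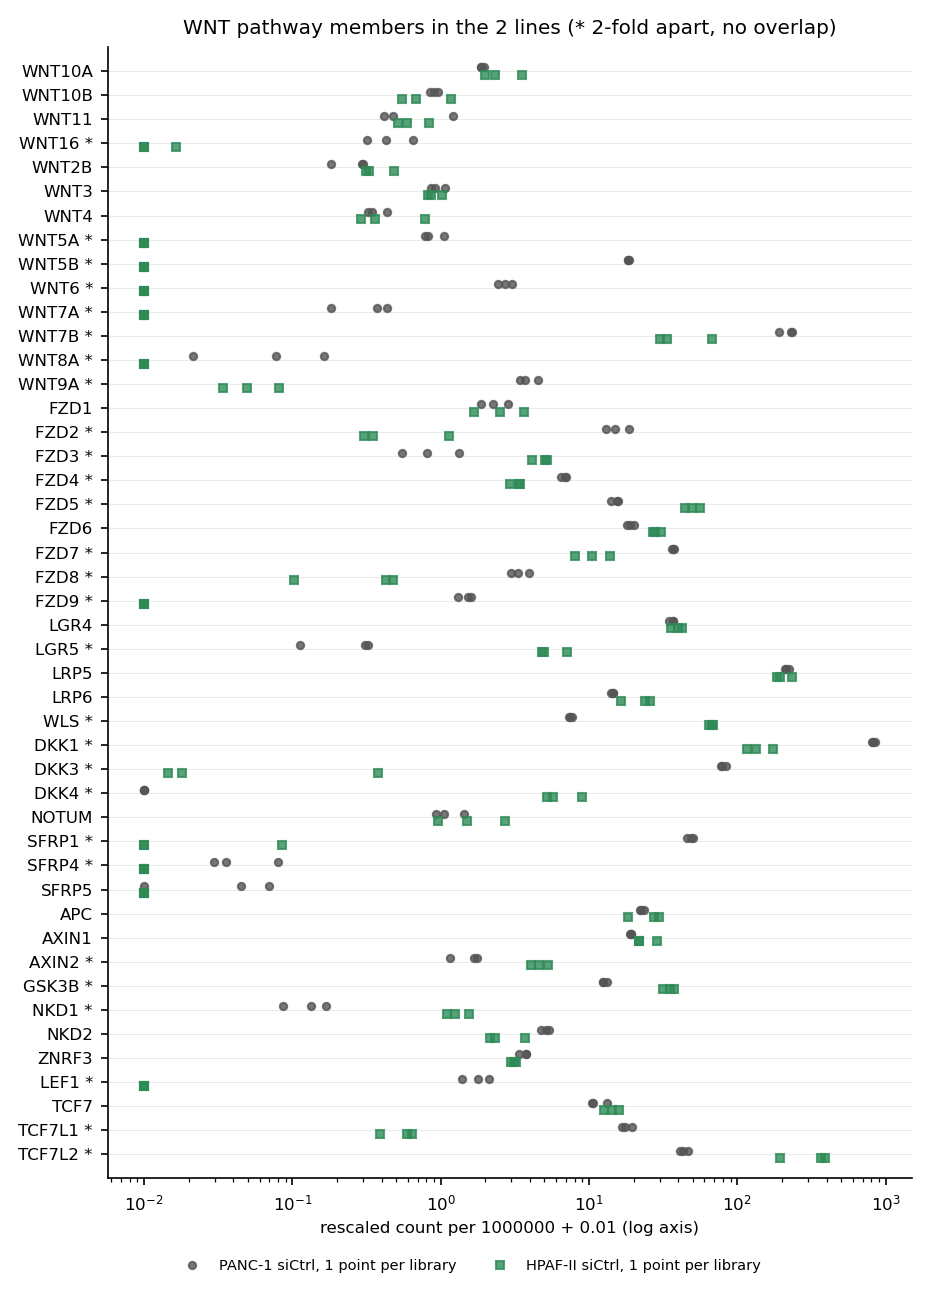
Rescaled count per 1000000 + 0.01 (horizontal log axis) of the 46 compared members in each siCtrl library of PANC-1 (grey circles) and HPAF-II (green squares), grouped by role, with an asterisk on the 28 members at least 2-fold apart without overlap. Points at the left edge are libraries listed at 0: WNT5A, WNT5B, WNT6, FZD9 and LEF1 lie there in HPAF-II and to the right in PANC-1.

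Of 14 ligands compared, 8 were lower in HPAF-II and 0 higher. WNT5A, WNT5B, WNT6, WNT7A, WNT8A and WNT16 reached the filter in PANC-1 alone, so they could be called only as lower in HPAF-II. WNT7B and WNT9A reached it in both lines. Over all genes compared, 21.6% were lower and 21.1% higher. Of the ligands called, WNT7A, WNT8A and WNT16 were low in PANC-1 too, at means of 0.319, 0.0768 and 0.454 rescaled counts. WNT7B stood at 191, 232 and 234 rescaled counts in PANC-1 and at 33.6, 30.1 and 67.1 in HPAF-II, 5.02-fold lower. WNT5B, at 18.4, 18.5 and 18.2 in PANC-1, WNT6, at 3.03, 2.71 and 2.43, and WNT5A, at 0.774, 1.05 and 0.816, were listed at 0 in every HPAF-II library. WNT9A stood at 3.42, 4.54 and 3.67 in PANC-1 and at 0.0397, 0.0239 and 0.0710 in HPAF-II, 70.8-fold lower. WNT10A was detected in both lines, unlike its neighbour WNT6, with 1.86, 1.95 and 1.87 in PANC-1 and 1.98, 2.32 and 3.54 in HPAF-II. WLS, in contrast to the ligands, stood at 7.31, 7.62 and 7.47 in PANC-1 and at 64.7, 67.6 and 68.4 in HPAF-II, 8.95-fold higher, with the libraries of each line close together.

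The receptors differed in both directions, 5 of 13 lower and 3 higher in HPAF-II, beside 21.6% and 21.1% of all genes compared. FZD2 stood at 18.7, 14.9 and 13.0 rescaled counts in PANC-1 and at 0.296, 0.339 and 1.13 in HPAF-II, 26.0-fold lower, or 47.5-fold without HPAF-II replicate 3. FZD7 was 3.40-fold lower (37.3, 36.7 and 36.2 against 10.5, 8.06 and 13.9), FZD8 10.1-fold lower (2.96, 3.90 and 3.31 against 0.0926, 0.419 and 0.465), and FZD9, at 1.30 to 1.59 in PANC-1, was listed at 0. FZD4 lay at the limit, 2.08-fold lower, or 1.99-fold without HPAF-II replicate 1. FZD5 stood at 15.6, 15.5 and 14.0 in PANC-1 and at 44.6, 49.8 and 55.7 in HPAF-II, 3.33-fold higher, and per kilobase it was the Frizzled receptor with the highest level there, at 7.46. FZD3 was 5.34-fold higher, and LGR5 22.7-fold higher, at 0.299, 0.313 and 0.102 against 7.08, 4.94 and 4.82. LRP5 overlapped between the lines (210.4, 223 and 213 against 194, 186 and 235), as did LGR4 and FZD1.

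Of the secreted antagonists, 4 of 7 were lower and DKK4 alone higher, beside 21.6% and 21.1% of all genes compared. SFRP4, among those lower, was near the floor, at a mean of 0.0385 rescaled counts in PANC-1, and was listed at 0 in HPAF-II. DKK1 stood at 825, 854 and 814 rescaled counts in PANC-1 and at 117, 133 and 174 in HPAF-II, 5.88-fold lower, but remained the member with the highest level per length in HPAF-II, at 64.1 per kilobase. DKK3 stood at 84.5, 77.6 and 78.5 in PANC-1 and at 0.00441, 0.00798 and 0.368 in HPAF-II, 586-fold lower, a size that rests on replicate 3. Replicates 1 and 2 of HPAF-II lay below the pseudocount of 0.01, so no fold without replicate 3 is given. SFRP1, at 48.4, 46.1 and 50.4 in PANC-1, was at 0.0750 in HPAF-II replicate 1 and listed at 0 in the other two. DKK4 was listed at 0 in all PANC-1 siCtrl libraries and stood at 8.91, 5.67 and 5.18 in HPAF-II.

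Of the transcription factors, 2 were lower and 1 higher in HPAF-II, beside 21.6% and 21.1% of all genes compared. TCF7L2 (chr10:112950247-113167678) stood at 46.3, 41.3 and 42.9 rescaled counts in PANC-1 and at 388, 365 and 193 in HPAF-II, 7.24-fold higher, with replicate 3 of HPAF-II at a level between the lines. Per kilobase it came second there, at 46.8, ahead of LRP5 at 33.3. TCF7L1, often a repressor, stood at 19.6, 16.6 and 17.5 in PANC-1 and at 0.587, 0.630 and 0.381 in HPAF-II, 33.0-fold lower, and LEF1, at 2.10, 1.39 and 1.77, was listed at 0. TCF7 was not called. AXIN2 was 3.05-fold higher in HPAF-II (1.73, 1.66 and 1.14 against 5.25, 4.06 and 4.58) and NKD1 10.1-fold higher, while GSK3B was 2.74-fold higher. NKD2, ZNRF3, APC and AXIN1 were not called.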

How the data were processed

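PolyA RNA of 12 libraries was sequenced. Whether counting used strand is not given in the sources used here, so members that overlap another gene are uncertain. The submitters' processing notes name the aligner STAR 2.7.5a and the build hg38. The deposited values are a signal, namely counts per gene that the authors scaled by library with DESeq2, for PANC-1 and HPAF-II in separate tables. Every value was a whole multiple (tolerance 0.01) of a step for its library, with size factors of 0.81 to 1.147, but 82.1% to 84.8% of values up to 30 steps divided by 3, so 1 step does not equal 1 fragment, depth is unknown, and no count test was run. Genes with a mean of at least 10 over the PANC-1 libraries were fitted on log2(value + 1) with limma 3.58.1 in R 4.3.3, in 1 model of 3 groups with a mean-variance trend, and p-values were adjusted by Benjamini-Hochberg over all 22544 genes. Intervals are 95% intervals of the fit. The script was tested on simulated data. Lines were compared on values rescaled to 1000000 per library, without a test. Lengths and overlaps come from GENCODE v29, coordinates from the deposited table, promoter windows from RefSeq. Members and lists were chosen with earlier results of these data known. A member was described in every library where it passed in a knockdown with a mean of at least 50 and libraries apart from siCtrl, or stood at least 2-fold apart between lines with a mean of at least 1 rescaled count, for at most 30 members; of the other lists the 2 largest rises and falls per knockdown were named. Alternatives changed the pseudocount (0.1 or 10; for the lines the fold, 4), the filter (none or 50), the scaling, the trend, the groups in the fit and the replicate block, and left out each library.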

Additional observations from a re-analysis of the deposited data

How the results depend on the processing

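The number of members called after siRBFOX2 moved by more than 1.5 times, from 18 to 11 without a mean-variance trend. Within roles, the same setting took the receptors from 11 to 7 after siQKI and from 5 to 2 after siRBFOX2, and the ligands from 7 to 4 after siRBFOX2. The cause was not tested. Leaving out 1 library at a time gave 16 to 20 members after siQKI, 13 to 18 after siRBFOX2, 10 to 14 between the knockdowns and 27 to 29 between the lines. It gave 19 to 28 and 18 to 24 other pathway genes after siQKI and siRBFOX2, 13 to 16 and 11 to 12 target genes, and log2 fold changes of -2.40 to -2.29 for QKI and -3.00 to -2.76 for RBFOX2. Of the 20 members called after siQKI, 14 kept the call in every alternative, of the 18 after siRBFOX2, 8 did, and of the 13 between the knockdowns, 10 did. Upper-quartile rescaling moved the median log2 fold change of all genes after siQKI from 0.03 to 0.09 and gave 17 higher and 4 lower members there. No member called against siCtrl changed direction in any alternative.

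Same-numbered libraries did not deviate together (correlations of -0.032 to 0.023). That cannot show whether they were prepared together, which is not stated. With the replicate block, 20 members were called after siQKI, 17 after siRBFOX2 and 13 between the knockdowns.

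Depth in fragments is unknown, so a member listed at 0 is not shown to be absent. HPAF-II replicate 3 sets the size of the FZD2 difference between the lines, and together with the pseudocount that of DKK3, as given in the report.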
